A study of Mus musculus with 24 samples.

Results

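The nuclear genes for the subunits of oxidative phosphorylation were followed in the thoracic aorta of mice given selective inhibitors of the inducible cyclooxygenase. Members were taken by symbol. Names had to start with Uqcr, Cox4 to Cox8 or Atp5, or with Nduf, a letter from a, b, c, s or v, and a number. Members also needed a mean of at least 10 raw counts over the 24 libraries. Pseudogene names, Cox7a1 and Cox8b were left out. The rule matched 83 symbols and kept 77 of the 25941 genes in the table. These comprise 35 genes of complex I, 8 of complex III, 16 of complex IV with its paralogues and 15 of ATP synthase. The other 3 carry such names without being subunits: Cox4nb is a gene of the endoplasmic reticulum membrane complex, and Atp5s and Atp5sl are accessory factors. All animals were adult male wildtype C57BL/6 mice of 10 to 12 weeks, with tissue taken at zeitgeber time 11 after 3 weeks of feeding. Chow held celecoxib at 100 mg/kg/day, rofecoxib at 50 mg/kg/day or no drug, with 8 libraries in each group. The doses of the drugs differed. PolyA RNA was sequenced, and deposited library totals ran from 21652432 to 21687906 counts.

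In oxidative phosphorylation, complex I takes electrons from NADH and complex II from succinate, and ubiquinone carries them to complex III. Cytochrome c then brings them to complex IV, which reduces oxygen, and the proton gradient built on the way drives ATP synthase. Most subunits are encoded in the nucleus and a few in mitochondrial DNA, and the latter were not analysed here. Smooth muscle holds a moderate number of mitochondria, whereas brown adipocytes, which lie around the mouse thoracic aorta, are packed with them.

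Just above the count minimum were Cox6a2, with a mean of 11.6 raw counts, and Cox6b2, with 47.2 raw counts. Just below it were Atp5l2 at 0.417, a second gene row named Ndufb8 at 0.25 and Cox7b2 at 0.083 raw counts. Of the 77 members, 76 passed the filter on low counts and were tested, and Cox6a2 did not pass. The annotated spans of 41 members overlapped another gene row. Reads in such overlaps could not be assigned with certainty, since no source used here states whether counting used strand.

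Promoters are shown as background on the members. Their part in the common variation of members between libraries, described further on, was not tested. RefSeq promoter entries on GRCm38.p6, running from 250 bases before to 50 bases after each start, were matched by symbol for 60 of the 77 members, giving 65 entries. Members without a matched entry included Atp5a1, Atp5f1, Ndufa2, Ndufb9, Ndufs1, Uqcrb, Uqcrc2, Uqcrq, Cox4i1, Cox4i2, Cox6a2, Cox6c, Ndufa4l2, Atp5s, Atp5sl and Cox4nb. Motifs of factors known for mitochondrial promoters were searched on both strands. The palindromic core of nuclear respiratory factor 1 stood in 24.6% of member entries and in 4.6% of all 32851 entries. The core shared by GABP and other ETS factors, CCGGAAG, stood in 21.5% of member entries and 8.86% of all entries. For YY1, AANATGGCG was found in 15.4% of member entries and 2.38% of all entries. By complex it was in 7 of 33 entries of complex I, 0 of 5 of complex III, 0 of 11 of complex IV and 3 of 16 of ATP synthase. The nuclear respiratory factor 1 core was in 8, 1, 1 and 6 of these entries in the same order. The oestrogen-related receptor motif TCAAGGTCA occurred in 1 member entry, that of Atp5g3, and in 0.423% of all entries. The GC box GGGCGG was about as frequent in member entries, at 36.9%, as in all entries, at 35.7%. Motif matches may overlap one another, and a match describes letters and not binding.

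In each complex, the promoter with the most kinds of motif in the 250 bases before the start is printed here, with ties settled by level. They belong to the complex I core gene Ndufs3 (chr2:90904722-90904971, minus strand), the complex III hinge protein gene Uqcrh (chr4:116075071-116075320, minus strand), the complex IV gene Cox6a1 (chr5:115348959-115349208, minus strand) and the ATP synthase epsilon gene Atp5e (chr2:174464102-174464351, minus strand). Capitals mark motif matches. Cox6a1 holds the nuclear respiratory factor 1 core, the GC box and the ETS core. Ndufs3 and Atp5e hold the GC box and the ETS core, and Uqcrh holds only the ETS core.
Ndufs3: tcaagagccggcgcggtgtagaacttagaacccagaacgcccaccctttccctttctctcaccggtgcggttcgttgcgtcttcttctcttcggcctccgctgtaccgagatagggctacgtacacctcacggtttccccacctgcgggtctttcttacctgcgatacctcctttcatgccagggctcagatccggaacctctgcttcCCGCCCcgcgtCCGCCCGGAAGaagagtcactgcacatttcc
Uqcrh: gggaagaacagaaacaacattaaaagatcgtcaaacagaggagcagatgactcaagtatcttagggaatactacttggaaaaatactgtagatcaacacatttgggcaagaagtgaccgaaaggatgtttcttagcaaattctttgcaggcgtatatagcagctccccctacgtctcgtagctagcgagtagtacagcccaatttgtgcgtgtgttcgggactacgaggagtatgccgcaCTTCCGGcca
Cox6a1: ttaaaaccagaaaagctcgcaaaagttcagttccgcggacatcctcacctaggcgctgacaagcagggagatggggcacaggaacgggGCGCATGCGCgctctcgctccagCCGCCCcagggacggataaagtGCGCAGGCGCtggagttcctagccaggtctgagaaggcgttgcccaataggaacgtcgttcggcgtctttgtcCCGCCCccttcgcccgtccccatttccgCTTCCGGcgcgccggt
Atp5e: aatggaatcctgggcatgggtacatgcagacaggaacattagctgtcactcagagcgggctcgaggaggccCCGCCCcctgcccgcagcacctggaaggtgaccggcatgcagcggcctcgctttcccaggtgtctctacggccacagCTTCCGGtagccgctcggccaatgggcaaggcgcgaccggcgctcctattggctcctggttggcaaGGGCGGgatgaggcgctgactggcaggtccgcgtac

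Levels are given as CPM, counts scaled to library size with TMM factors. They are compared between genes as CPM per kb of exon, except where raw counts are named. Over the 23 libraries other than control 6, the reason for which follows, Atp5b had the highest level at 384 ± 34.1 CPM per kb (SD, n = 23). It encodes the catalytic beta subunit of ATP synthase. Cox6a1 followed at 362 ± 39.1 CPM per kb and Cox4i1 at 300 ± 24.4 CPM per kb, both of complex IV. The intervals of mean ± SD of Atp5b and Cox6a1 overlapped. Both genes were measured in the same libraries, and their difference was not tested. In complex III the highest was Uqcrh at 248 ± 15.6 CPM per kb, and in complex I it was Ndufb9 at 141 ± 12.9 CPM per kb. Apart from the low paralogues of complex IV, the lowest subunit gene was Ndufb2 at 7.26 ± 0.58 CPM per kb. Its place depends on its exon length of 4375 bases, the union of all its annotated exons. In raw counts Ndufb2 averaged 699, above Ndufb4 at 269.

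**Figure D1:**
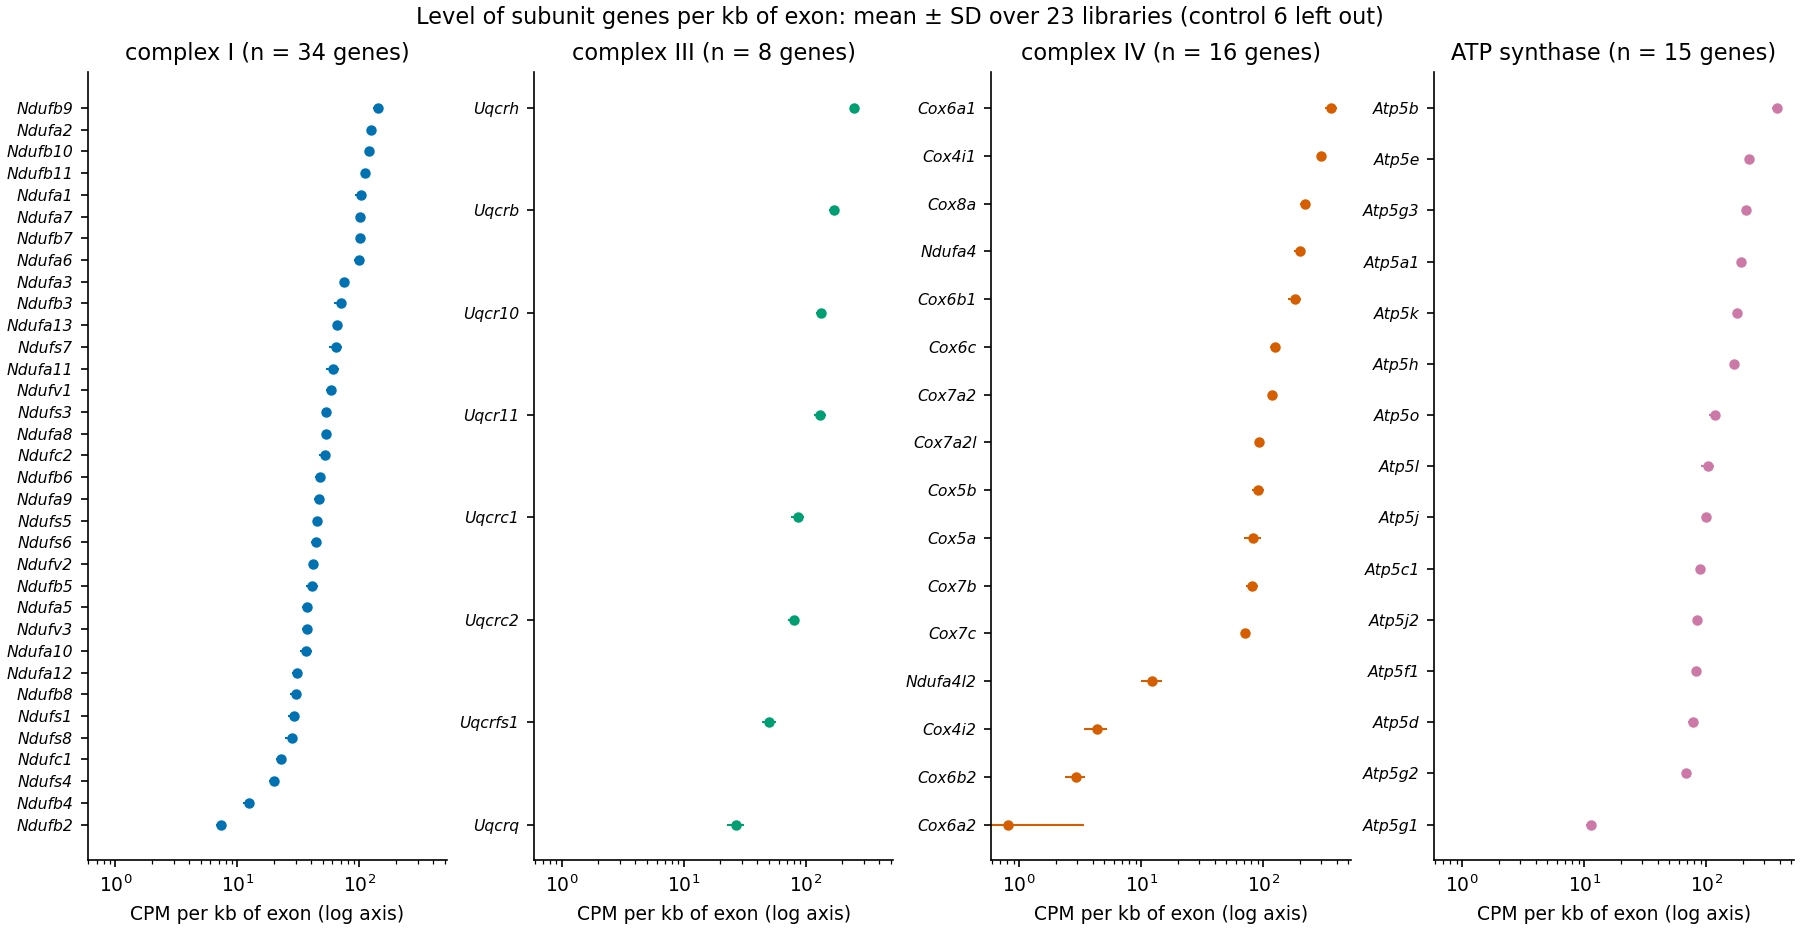
Mean level of subunit genes in CPM per kb of exon on a log axis, 1 panel per complex, with bars for the SD over the 23 libraries without control 6. Most genes lie between 20 and 400 CPM per kb, and the complex IV paralogues Ndufa4l2, Cox4i2, Cox6b2 and Cox6a2 lie far below the rest of their panel. The lower bar of Cox6a2 is cut off because its SD exceeds its mean.

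Control 6, a library from a mouse on plain chow, stood apart from all other libraries in these genes. It was the highest of the 24 libraries for 69 of the 76 members tested, against 15.3% of all genes. It exceeded 1.5 times the median of the other 7 controls for 61 members, against 11.3% of all genes. The median ratio of control 6 to the median of the other 7 controls was 1.83 over the members, with a range from 0.936 to 3.1, and 0.999 over all 14451 genes tested. By complex the median ratio was 2.3 for complex III, 1.98 for complex IV, 1.82 for complex I and 1.72 for ATP synthase. Every complex I and complex III gene tested was highest in control 6. A score for each library, the mean log2 CPM of the members tested, was 6.85 in control 6 and from 5.83 to 6.23 in the other 23 libraries.

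**Figure D2:**
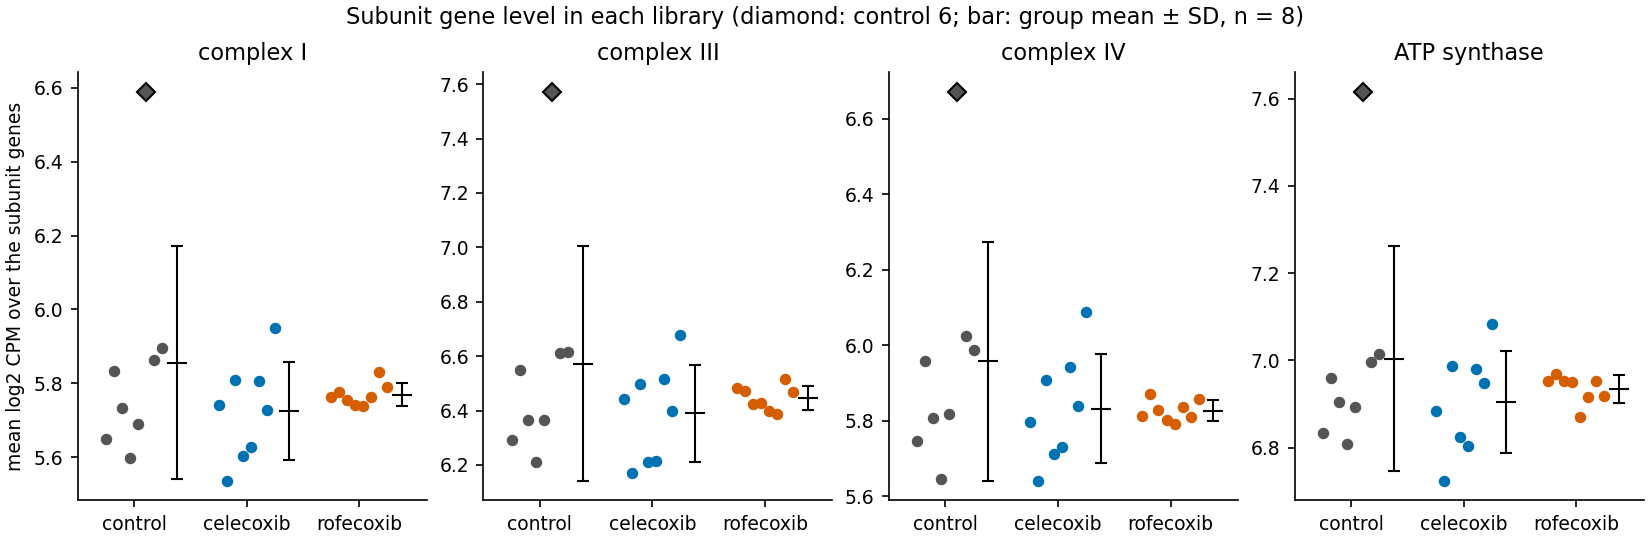
Mean log2 CPM of the tested subunit genes of each complex in every library, with group mean and SD (n = 8) beside the points and control 6 drawn as a diamond. Control 6 lies above every other library in all 4 panels, and the rofecoxib libraries lie closer together than those of the other groups.

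The same library had the highest sum of brown fat markers, though not every marker peaked there. Ppargc1a, on the same list, measured 20.3 CPM in control 6 and 24.4 CPM in another control. Ucp1, the uncoupling protein that defines brown adipocytes, measured 843 CPM in control 6 and at most 254 CPM in any other library. Of the 14 brown adipocyte markers, the 13 tested summed to 1933 CPM in control 6. The sum ran from 208 to 626 CPM in the other controls, 149 to 621 CPM with celecoxib, and 308 to 502 CPM with rofecoxib. None of the 14 was at 0 in every library. Cox7a1 and Cox8b, the muscle and brown fat isoforms that the rule leaves out, measured 50.6 and 141 CPM in control 6 and at most 21.7 and 64.9 CPM elsewhere. White and general adipocyte markers summed to 6834 CPM in control 6 and at most 3947 CPM in the other controls, and Schwann cell markers to 672 and at most 382 CPM. In Schwann cell markers a celecoxib library reached higher than control 6, at 725 CPM. The sum of smooth muscle markers, which define the tissue together with endothelial markers, was lowest in control 6 at 34385 CPM. The endothelial sum was lowest among controls there at 627 CPM. By mean log2 CPM, endothelial markers were not low in control 6, at 5.65 beside a control mean of 5.60. Fibroblast markers were lowest among controls there by both measures, at 10352 CPM and 8.91. In bulk tissue, more cells of a type and more RNA per cell cannot be told apart. The part of brown fat in the levels of control 6 was not tested.

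The marker level also varied with the members in the remaining libraries. The score of the brown adipocyte markers and that of the members had Pearson's r = 0.824 and Spearman's rho = 0.791 over 24 libraries, and r = 0.769 and rho = 0.763 over 23 libraries without control 6. Leaving out the 2 libraries farthest from the median marker score, control 6 and celecoxib 5, gave r = 0.76 and rho = 0.737. Within groups r was 0.902 in the 7 other controls, 0.765 with celecoxib and 0.379 with rofecoxib. The marker score itself includes Cox7a1 and Cox8b, which are complex IV genes, and Ppargc1a, a coactivator of mitochondrial biogenesis. Both scores also come from the same libraries and share their scaling, so these values are a description. The white adipocyte score had r = 0.643 over 24 libraries and 0.393 without control 6. The smooth muscle score had r = -0.58 over 24 libraries and -0.36 without control 6.

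**Figure D3:**
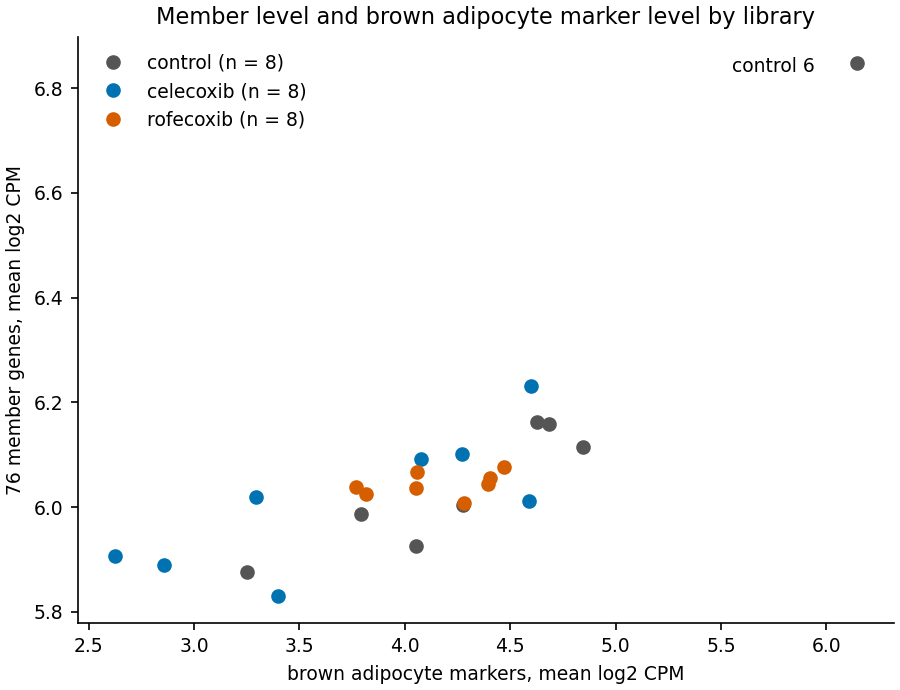
Mean log2 CPM of the 76 tested members against mean log2 CPM of the brown adipocyte markers, 1 point per library. Control 6 lies at 6.85 and 6.14, away from the rest, and among the others celecoxib libraries span the widest range on both axes.

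The brown adipocyte score averaged 4.46 ± 0.86 with plain chow, 3.71 ± 0.77 with celecoxib and 4.16 ± 0.27 with rofecoxib (mean log2 CPM ± SD, n = 8 each). Celecoxib libraries were lower than controls by 0.75 on average, with a two-sided exact permutation p of 0.0886, or 0.227 after Benjamini-Hochberg adjustment over 3 comparisons. The adjusted exact permutation p was 0.393 for rofecoxib against control and 0.227 for celecoxib against rofecoxib. No group difference in the brown score passed the test.

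The design asks how each drug changed expression against plain chow and how the drugs differed. For the subunit genes the answer in both comparisons with control was few calls. With celecoxib, none of the 76 members was called against control by edgeR's quasi-likelihood test at an adjusted p under 0.05, where 1.41% of all genes were called, 0.913% higher and 0.498% lower. At an unadjusted p under 0.05 there were 10 members (13.2%), against 17.3% of all genes, and DESeq2 called 0 members. With rofecoxib, Ndufa4l2 was the 1 member called against control, and it was lower, where 5.3% of all genes were called, 2.43% higher and 2.87% lower. At an unadjusted p under 0.05 there were 7 members, against 27.1% of all genes. Between the drugs, where 22.7% of all genes were called, 3 members passed: Ndufa4l2 and Cox6b2 were higher with celecoxib (background 11.5%) and Ndufb3 was lower (background 11.2%). At an unadjusted p under 0.05 there were 6 members, against 36.0% of all genes.

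Without being called, most members lay below control with both drugs. The median log2 fold change over the 76 members was -0.16 with celecoxib and -0.12 with rofecoxib, with 72 and 67 members below 0, against medians of -0.0053 and -0.00021 over all genes. With control 6 left out these medians were -0.02 and 0.03, with 53 and 26 members below 0. In that fit 1.82% of all genes were called with celecoxib and 2.31% with rofecoxib, and the members called were 0 and 1, again Ndufa4l2. These comparisons share the control libraries. Over the 10 smooth muscle markers the median log2 fold change was above 0, at 0.21 with celecoxib and 0.24 with rofecoxib, and Acta2, Actg2 and Tagln were called higher with each drug. Without control 6 those medians were 0.19 and 0.23, and the markers called were Acta2 and Actg2 with celecoxib and Tagln with rofecoxib. Their part in the members' values was not tested. Between the drugs the median was -0.04 with 52 members below 0, and -0.05 with 55 below 0 when control 6 was left out. When the fit took the brown adipocyte score as covariate, the medians were 0.06, -0.01 and 0.07 for celecoxib against control, rofecoxib against control and celecoxib against rofecoxib. That score includes the complex IV genes Cox7a1 and Cox8b.

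**Figure D4:**
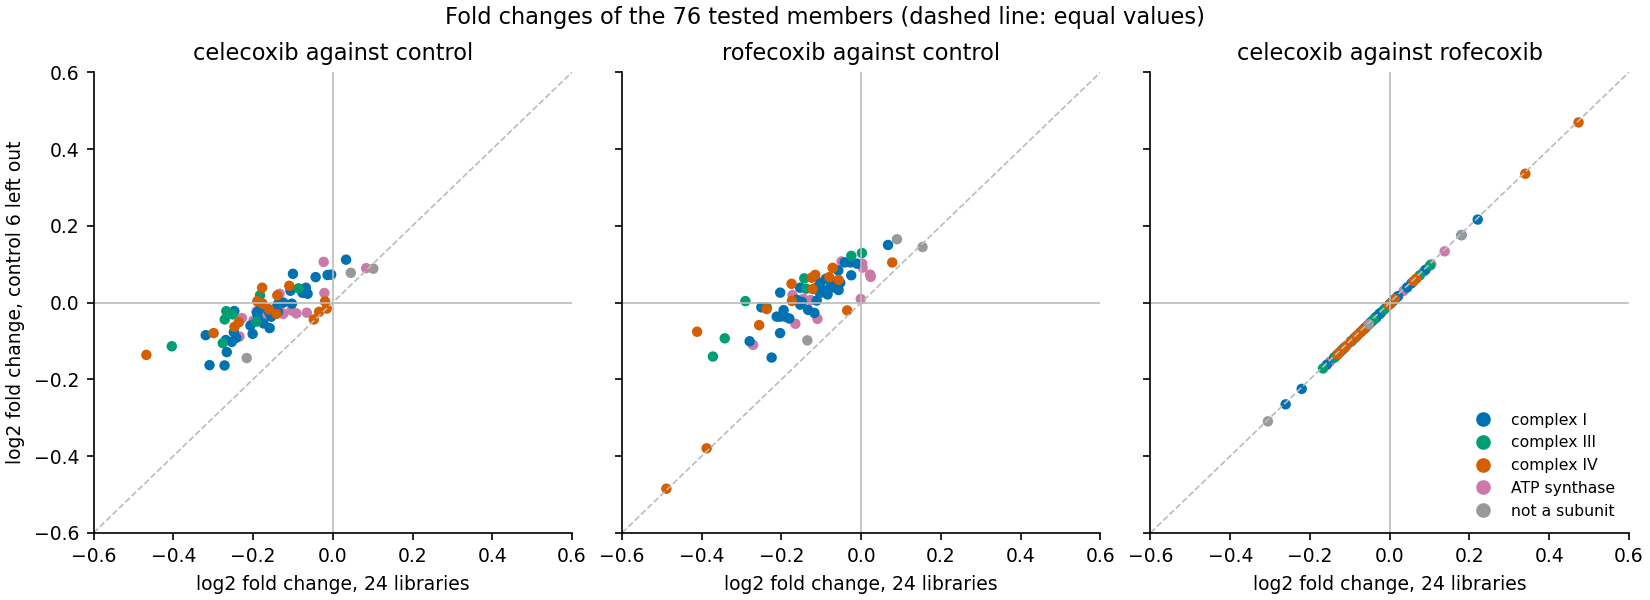
Log2 fold change of each of the 76 tested members over all 24 libraries (horizontal) and with control 6 left out (vertical), 1 panel per comparison, coloured by complex. In both comparisons with control nearly all points lie above the dashed line of equal values, and between the drugs they lie on it.

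The precision of a member's fold change followed that library too. The median standard error over members was 0.11 on the log2 scale and 0.065 without control 6 in the comparison of celecoxib with control. The 95% interval lay within 1.5-fold of no change for 70 of 76 members in each comparison with control, and for 76 and 74 without control 6. Between the drugs it did so for 74 members in both fits. Leaving control 6 out raised the members called between the drugs from 3 to 9, where 24.8% of all genes were called. Ndufa4l2, Cox6b2 and Ndufa11 were then higher with celecoxib, and Ndufb3, Ndufs1, Atp5k, Atp5h, Uqcrb and Atp5s were lower. Of these 9 calls, those of Ndufa4l2 and Atp5k were also made with GC correction and control 6 left out, and the other 7 were lost.

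The groups also differed in spread. The member score had an SD of 0.022 over the 8 rofecoxib libraries (6.01 to 6.08), 0.13 over the 8 celecoxib libraries (5.83 to 6.23) and 0.11 over the 7 controls without control 6 (5.88 to 6.16). These spreads were not tested. Among the 23 libraries without control 6, celecoxib 8 was highest for 43 of the 76 members and celecoxib 2 was lowest for 25. Both ends thus lay in the celecoxib group. These counts were not taken over all genes, so they do not set the members apart from other genes.

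Complex I has 7 core subunits that carry out catalysis, and the rest of its subunits surround them. The core genes had a median log2 fold change of -0.2 with celecoxib and -0.2 with rofecoxib against control, and of -0.08 and -0.04 without control 6. None was called when group means alone were fitted to all 24 libraries. With the brown adipocyte score as covariate, Ndufs7 was called higher with celecoxib than with rofecoxib. Ndufs1, which encodes the largest iron-sulfur subunit, ran from 74.1 to 156 CPM in controls with a median of 85.7 CPM. It ran from 64 to 89.3 CPM (median 73.6) with celecoxib and from 80.2 to 94.8 CPM (median 84.8) with rofecoxib, with 8 libraries per group. The celecoxib range reached lowest, and all 3 ranges overlapped. The log2 fold change of Ndufs1 was -0.31 ± 0.11 (SE) for celecoxib against control (adjusted p = 0.159), and -0.16 ± 0.07 without control 6 (adjusted p = 0.201). Between the drugs it was -0.22 ± 0.11 (adjusted p = 0.162), and without control 6 -0.22 ± 0.07 (adjusted p = 0.0173). Its row overlaps Eef1b2 by 402 bases.

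Ndufb3, a supernumerary subunit of the membrane arm, was lower with celecoxib than with rofecoxib. It measured 41 to 59.9 CPM with celecoxib (median 48.1), 52.6 to 61.5 CPM with rofecoxib (median 58.6) and 46.7 to 88.1 CPM in controls (median 54.6), where the top value is control 6. Celecoxib values lay mostly below those of rofecoxib, and the ranges overlapped. The log2 fold change between the drugs was -0.26 ± 0.09 (SE), with an adjusted p of 0.0487 in edgeR. That call was lost when 12 of the 24 libraries were left out in turn, where the adjusted p ran from 0.00564 to 0.104, without the filter on low counts (adjusted p = 0.073) and after correction for GC content (adjusted p = 0.386). Against control, Ndufb3 had a log2 fold change of -0.27 ± 0.09 with celecoxib (adjusted p = 0.139) and of -0.01 ± 0.09 with rofecoxib.

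Neither Ndufa9 nor Ndufs3 was called in any comparison. Ndufa9, a supernumerary subunit of the matrix arm, averaged 66.1 ± 6.5 CPM with celecoxib, 73.8 ± 4.9 CPM with rofecoxib and 79.5 ± 21.7 CPM in controls (SD, n = 8), or 72.3 ± 7.41 CPM in the 7 controls without control 6. Ndufs3, a core subunit of the matrix arm, averaged 53.8 ± 5.64, 56.2 ± 1.73 and 64.1 ± 18.8 CPM in the same order, and 57.7 ± 5.32 CPM without control 6. Ndufa11, a subunit of the membrane arm, averaged 70.9 ± 7.75 CPM with celecoxib, 60.9 ± 2.82 CPM with rofecoxib and 71.1 ± 14.1 CPM in controls. Its log2 fold change between the drugs was 0.22 ± 0.09 (adjusted p = 0.0804) and 0.22 ± 0.07 without control 6 (adjusted p = 0.0358). With GC correction it was 0.05 (adjusted p = 0.73), and 0.05 (adjusted p = 0.619) with control 6 left out as well. Ndufb8 had the largest ratio of control 6 to the median of the other controls in this complex, at 2.49, with 166 CPM against 58.6 to 82.4 CPM. Ndufb2 had the smallest, at 1.43, with 43.4 CPM against 27 to 34.3 CPM in the other controls.

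Complex III showed the widest swing between libraries. Uqcrfs1, the Rieske iron-sulfur protein that hands electrons to cytochrome c1, measured 197 CPM in control 6 and 56.6 to 83.9 CPM in the other controls. It ran from 51.7 to 79.7 CPM (median 65.2) with celecoxib and from 61.9 to 81.8 CPM (median 68.9) with rofecoxib. Apart from control 6 the groups overlapped throughout. Its log2 fold change against control was -0.40 ± 0.19 with celecoxib (adjusted p = 0.268) and -0.29 ± 0.19 with rofecoxib (adjusted p = 0.323). Without control 6 these values were -0.11 ± 0.10 and 0.00 ± 0.10.

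The core protein genes Uqcrc1 and Uqcrc2 measured 355 and 309 CPM in control 6, above 128 to 175 and 140 to 173 CPM in the other controls. Uqcrc1 had a log2 fold change of -0.37 ± 0.16 with rofecoxib against control (adjusted p = 0.131), and of -0.14 ± 0.09 without control 6. For Uqcrc2 with celecoxib the values were -0.28 ± 0.13 (adjusted p = 0.253) and -0.11 ± 0.07. Uqcrq, a small subunit, had the largest coefficient of variation among complex III genes over the 23 other libraries, at 15.5%. Uqcrh was the steadiest at 6.29%, and it averaged 142 ± 34 CPM in controls, 134 ± 7.31 CPM with celecoxib and 142 ± 6.18 CPM with rofecoxib. Uqcrb was not called in the fit to all 24 libraries (adjusted p = 0.269 between the drugs). It was called lower with celecoxib than with rofecoxib without control 6 (-0.17 ± 0.06, adjusted p = 0.0319) and with only the libraries of both drugs fitted.

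In complex IV, Ndufa4l2 was the member with the clearest difference between groups. It encodes a paralogue of the subunit NDUFA4 and is known as a gene induced in hypoxia. Its row lies on chromosome 10 from 126951793 to 126954410 in mm9. In controls it measured 10.4 to 15.4 CPM with a median of 13 CPM, and with celecoxib 11 to 14 CPM with a median of 13 CPM. With rofecoxib it measured 6.94 to 10.9 CPM with a median of 9.12 CPM. Every rofecoxib library lay below every celecoxib library, which held for 1.67% of all genes in either direction, and 2 rofecoxib libraries reached above the lowest control. Ndufa4l2 was the only member whose groups did not overlap in any of the 3 comparisons, against 0.298% and 0.567% of all genes for celecoxib and rofecoxib against control.

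The log2 fold change of Ndufa4l2 was -0.49 ± 0.09 (SE) for rofecoxib against control, with an adjusted p of 0.00644 in edgeR. Between the drugs it was 0.47 ± 0.09 (adjusted p = 0.00148), and for celecoxib against control -0.02 ± 0.09 (adjusted p = 0.943). Both calls held with each library left out in turn, with adjusted p at most 0.0189 and 0.00463. They also held under every other setting tried, where correction for GC content gave the smallest size. In it the values were -0.35 (adjusted p = 0.0206) against control and 0.29 (adjusted p = 0.0166) between the drugs. Control 6, at 0.992 times the median of the other controls, did not stand out in Ndufa4l2. The row overlaps Shmt2, a folate enzyme gene, by 418 bases. Shmt2 was itself called higher with celecoxib than with rofecoxib (0.24, adjusted p = 0.0197), and its part in the reads of Ndufa4l2 was not tested.

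Ndufa4 itself, at 201 ± 21.6 CPM per kb against 12.4 ± 2.35 CPM per kb for Ndufa4l2 over 23 libraries, followed the other subunits. It averaged 142 ± 49.7 CPM in controls (125 ± 12.8 without control 6), 120 ± 16.7 CPM with celecoxib and 131 ± 8.7 CPM with rofecoxib, and was not called in any comparison. Paralogues with a known tissue preference were low throughout. Cox4i2, known from lung, stood at 4.34 ± 0.94 CPM per kb beside 300 ± 24.4 CPM per kb for Cox4i1. Its means were 3.49 ± 0.81, 3.4 ± 0.74 and 3.4 ± 0.72 CPM with plain chow, celecoxib and rofecoxib, all overlapping.

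Cox6b2, known as the testis isoform, stood at 2.93 ± 0.55 CPM per kb beside 182 ± 21.4 CPM per kb for Cox6b1. It measured 2.07 to 2.8 CPM in controls (median 2.46), 1.78 to 2.81 CPM with celecoxib (median 2.36) and 1.41 to 2.14 CPM with rofecoxib (median 1.77). The rofecoxib values were the lowest as a group and overlapped both others. The log2 fold change was 0.34 ± 0.12 between the drugs (adjusted p = 0.0423) and -0.39 ± 0.12 for rofecoxib against control (adjusted p = 0.0547). The call between the drugs was lost when 10 of the 24 libraries were left out in turn, with adjusted p from 0.0217 to 0.0996, and under 6 of the other settings. GC correction was 1 of them, with an adjusted p of 0.199.

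**Figure D5:**
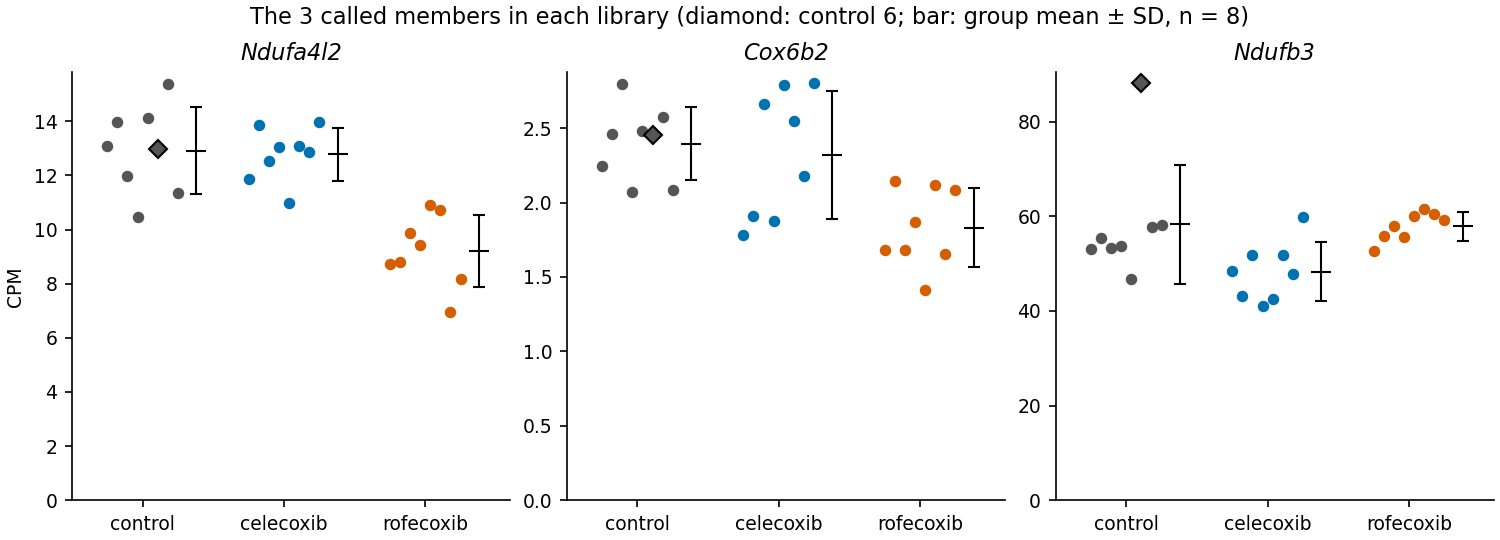
CPM of Ndufa4l2, Cox6b2 and Ndufb3 in each library from an axis starting at 0, with group mean and SD (n = 8) and control 6 as a diamond. All 8 rofecoxib values of Ndufa4l2 lie below all celecoxib values, whereas Cox6b2 and Ndufb3 overlap between the groups.

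Cox6a2, the heart and skeletal muscle isoform, was near 0 in nearly all libraries. It reached 8.52 CPM in rofecoxib 2 and at most 1.05 CPM elsewhere. Cardiac muscle markers summed to 581 CPM in rofecoxib 2 and to at most 112 CPM in the other groups. The mean log2 CPM of cardiac markers was 6.13 in rofecoxib 2 and at most 3.55 in any other library. For skeletal muscle markers it was 1.93 and at most 0.96. The part of these markers in the Cox6a2 value was not tested. The common isoform Cox6a1 measured 450 CPM in control 6 and 171 to 262 CPM in the other 23 libraries.

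Cox5a, a matrix-facing subunit, had the largest ratio of control 6 to the median of the other controls among all members, at 3.11. It measured 173 CPM there and 38.7 to 69.7 CPM in the other controls. Its log2 fold change against control was -0.47 ± 0.21 with celecoxib (adjusted p = 0.256) and -0.41 ± 0.21 with rofecoxib (adjusted p = 0.213), and -0.14 ± 0.12 and -0.08 ± 0.12 without control 6. Cox7a2l, which encodes a factor that joins complexes III and IV into supercomplexes, did not follow, at 118 CPM in control 6 and 96.2 to 126 CPM elsewhere. It was not called, with a log2 fold change of -0.10 ± 0.05 between the drugs (adjusted p = 0.188).

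In ATP synthase no gene was called when group means alone were fitted to all 24 libraries. With the brown adipocyte score as covariate, Atp5d was called higher with celecoxib than with rofecoxib. The alpha subunit gene Atp5a1 measured 1069 CPM in control 6 and 535 to 625 CPM in the other controls, and Atp5b 1476 CPM and 645 to 825 CPM. Atp5a1 averaged 541 ± 46.3 CPM with celecoxib and 574 ± 16 CPM with rofecoxib, beside 575 ± 39.3 CPM in the 7 controls without control 6. Atp5d, the delta subunit gene, had a log2 fold change of -0.27 ± 0.11 with rofecoxib against control (adjusted p = 0.131) and -0.11 ± 0.06 without control 6.

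The c ring is encoded by 3 genes whose mature protein is the same, Atp5g1, Atp5g2 and Atp5g3. They stood at 11.5 ± 1.01, 67.8 ± 4.69 and 213 ± 11 CPM per kb over 23 libraries. These levels rest on exon lengths of 4912, 731 and 724 bases, each the union of all annotated exons. In raw counts Atp5g1 averaged 1218.7, above Atp5g2 at 1090.5 and below Atp5g3 at 3367.5. The order of Atp5g1 and Atp5g2 thus depends on the length used. The 3 genes also differed in control 6. Its ratio to the median of the other controls was 1 for Atp5g1, 1.37 for Atp5g2 and 1.21 for Atp5g3, all under the complex's median of 1.72. Atp5g1 measured 57.3 CPM in control 6, within the 46.2 to 60.5 CPM of the other controls. None of the 3 genes was called in any comparison. Reads from near-identical copies, including processed pseudogenes of these and other subunits, may be split between rows, and how the counting treated them is not stated by any source used here.

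Over 24 libraries the 3 members that are not subunits had an r with the mean of the other members of 0.473 for Atp5s, 0.337 for Atp5sl and -0.342 for Cox4nb. Atp5s was highest in control 6, at 6.28 CPM against at most 5.61 CPM in any other library. Cox4nb averaged 150 ± 7.72 CPM in controls, 161 ± 10.2 CPM with celecoxib and 167 ± 11.5 CPM with rofecoxib, and control 6 stood at 0.936 times the median of the other controls. Its log2 fold change with rofecoxib against control was 0.15 ± 0.05 (adjusted p = 0.0528), and it passed the test when scaled by library totals (adjusted p = 0.0487), with DESeq2 (0.0288) and with GC correction (0.0203). Its row overlaps Cox4i1 by 227 bases. Atp5s had a log2 fold change of -0.31 ± 0.11 between the drugs (adjusted p = 0.0529), and -0.31 ± 0.10 without control 6 (adjusted p = 0.0307). For Atp5sl the value was 0.18 ± 0.07 (adjusted p = 0.0631).

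Correlation between members over libraries rested in part on control 6, and it was not compared with that between other genes. The median Pearson's r over the 2850 pairs of members was 0.845 over 24 libraries and 0.586 over 23 libraries without control 6. By complex the median over 23 libraries was 0.718 in complex III, 0.614 in complex I, 0.609 in complex IV and 0.51 in ATP synthase. Ndufb8 followed the mean of the other members most closely over 23 libraries, at r = 0.954. Cox7a2l (r = -0.131), Cox4nb (r = -0.113), Ndufa4l2 (r = -0.038), Atp5sl (r = 0.081) and Cox6b2 (r = 0.217) followed it least. All pairs share the same libraries and scaling, so these values are a description.

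Transcript GC content varied with the difference between the drugs. Across the 76 members, which are not independent replicates, Spearman's rho between GC content and log2 fold change was 0.634 for celecoxib against rofecoxib, 0.276 for celecoxib against control and -0.382 for rofecoxib against control. The slope of log2 CPM on GC fraction averaged 1.02 ± 0.94 with celecoxib, 0.54 ± 0.90 in controls and -0.92 ± 1.02 with rofecoxib (SD, n = 8 each). The slopes ran from -0.40 to 2.19, from -0.65 to 1.71 and from -2.68 to 0.08 in the same order, so the groups overlapped. With GC correction 2 members were called between the drugs, Ndufa4l2 and, lower with celecoxib, Cox4nb.

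The wider pathway was read from further lists, beside shares of 1.41%, 5.3% and 22.7% of all genes called for celecoxib against control, rofecoxib against control and celecoxib against rofecoxib. The list of succinate dehydrogenase and electron carriers also held Ndufab1 and Cyc1, genes of complexes I and III outside the naming rule. Of its 19 genes, 0 were called in any comparison. Their median ratio of control 6 to the other controls was 2.07, with Cycs, cytochrome c, at 170 CPM against at most 74.8 CPM in any other library. Of 28 assembly factors tested, Nubpl, an iron-sulfur protein needed to build complex I, was the 1 called. It averaged 3.08 ± 0.44 CPM with celecoxib, 4.3 ± 0.7 CPM in controls and 4.34 ± 0.45 CPM with rofecoxib. Its log2 fold change was -0.48 ± 0.11 against control (adjusted p = 0.0278) and -0.50 ± 0.11 against rofecoxib (adjusted p = 0.00347). Both calls held without control 6 (adjusted p = 0.0363 and 0.00218) and with GC correction (adjusted p = 0.0234 and 0.0216).

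Among 13 genes of the tricarboxylic acid cycle, Suclg2, a subunit of succinyl-CoA synthetase, was lower with celecoxib (79.3 ± 4.81 CPM) than with rofecoxib (95.2 ± 5.19 CPM), by -0.27 ± 0.05 on the log2 scale (adjusted p = 0.00129). No other gene of the cycle was called in any comparison. Of 15 regulators tested, Ppargc1a, the coactivator of mitochondrial biogenesis, averaged 6.09 CPM with celecoxib, where it ran from 4.26 to 11.6 CPM, and 13 CPM with rofecoxib, where the lowest value was 7.52 CPM. The ranges overlapped. The log2 fold change was -1.10 ± 0.29 (adjusted p = 0.0119). It is also on the brown adipocyte list, where it was the 1 of 13 genes called between the drugs. Ppard was higher with celecoxib (0.23 ± 0.05, adjusted p = 0.00624) and had an adjusted p of 0.751 after GC correction. Of 76 mitochondrial ribosome genes, 4 were called between the drugs, where 22.7% of all genes were. Mrps12 and Mrpl43 were higher and Mrps18c and Mrpl13 lower with celecoxib than with rofecoxib. None of these 4 calls held after GC correction (adjusted p from 0.37 to 0.761).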

How the data were processed

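The authors deposited 1 table of counts per gene (whole numbers) for 24 libraries. Reads had gone through CASAVA 1.8.2 and STAR 2.5.1b on mm9, per the submitters' processing notes. Counting tool, annotation, strand and the step that made library totals nearly equal are not stated in any source used here. No gene of chromosome M was in the table.

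Genes were tested with edgeR 4.0.16 in R 4.3.3: filterByExpr, TMM factors, a robust quasi-likelihood fit to all 24 libraries with 1 mean per group, and Benjamini-Hochberg adjustment over the 14451 genes tested. A gene was called at an adjusted p under 0.05. The SE was taken from the log2 fold change and the quasi-likelihood F, as the ratio of its size to the root of F. Scores are means of log2 CPM with a prior count of 2. Exon lengths and transcript GC came from GENCODE M21 (GRCm38) by Ensembl identifier, for all 77 members. The exon length of a gene is the union of its annotated exons, which can exceed the length of any single transcript. The fit was tried on simulated data with independent genes, no outlying library and no GC slope. Those data do not show how it behaves where such features are present. Where nothing says that libraries of a group came from separate animals, p-values measure only the spread between libraries; the series text calls them biological replicates.

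The members, lists and alternatives were chosen with earlier results of these data known. Named members are those called, the 6 smallest p per comparison, the 2 highest and the lowest level per complex, paralogues with known tissue preference, the 3 largest and 3 smallest SD over libraries, and those beside the count minimum. Atp5h, Atp5k, Ndufb8 and Ndufs7 were named after their values were seen. The values of 1 gene are not reported here. Alternatives were library totals, DESeq2 1.42.0, no filter, GC correction, the brown adipocyte score as a covariate, only the groups compared, a replicate block and leaving out libraries.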

Additional observations from a re-analysis of the deposited data

Results flagged for a closer look

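In the control group, control 6 lay farther above the other 7 libraries than the spread among them allows by Dixon's test at the 95% level. In the scores, control 6 stood at 6.85 for all members, 6.59 for complex I, 7.57 for complex III, 6.67 for complex IV and 7.62 for ATP synthase (mean log2 CPM). Among named genes of complex I, control 6 measured 112 CPM for Ndufa2, 130 CPM for Ndufa9, 43.4 CPM for Ndufb2, 88.1 CPM for Ndufb3, 209 CPM for Ndufb9, 156 CPM for Ndufs1 and 109 CPM for Ndufs3. In complex III it measured 164 CPM for Uqcrb, 355 CPM for Uqcrc1, 309 CPM for Uqcrc2, 197 CPM for Uqcrfs1, 224 CPM for Uqcrh and 126 CPM for Uqcrq. In complex IV the values were 428 CPM for Cox4i1, 173 CPM for Cox5a, 450 CPM for Cox6a1, 263 CPM for Cox6b1, 141 CPM for Cox7a2, 171 CPM for Cox7b, 248 CPM for Cox8a and 261 CPM for Ndufa4. In ATP synthase they were 1069 CPM for Atp5a1, 1476 CPM for Atp5b, 218 CPM for Atp5d, 155 CPM for Atp5e, 68.9 CPM for Atp5g2, 187 CPM for Atp5g3 and 137 CPM for Atp5j. Over all 76 members tested, 67 had control 6 apart from the other controls in this way (88.2%), against 13.2% of all genes in the control group with any library apart. With celecoxib 2.63% and with rofecoxib 1.32% of members had a library apart, against 5.25% and 5.67% of all genes; the test's own rate by chance is about 5% per group.

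Outside control 6, Cox6a2 stood apart at 8.52 CPM in rofecoxib 2 and at 1.05 CPM in control 3. Cox7a2l stood apart at 122 CPM in celecoxib 4.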

How the results depend on the processing

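Celecoxib against control gave 0 called members under every setting and with every library left out. Members called for rofecoxib against control were 2 with library totals, 3 with DESeq2, 2 with GC correction, and 2 with GC correction and control 6 left out, and ran from 1 to 3 as libraries were left out. The additions were Cox4nb and Cox6b2, and 2 or 3 members were called without control 4, celecoxib 4, celecoxib 7, rofecoxib 4 or rofecoxib 6. Between the drugs they were 5 with DESeq2, 1 without the count filter, 5 with GC correction and control 6 left out, 7 with the brown adipocyte score as covariate and 7 with only those groups fitted. As libraries were left out they ran from 1 (without celecoxib 5, celecoxib 7, rofecoxib 5 or rofecoxib 7) to 9 (without control 6). The members below 0 against control numbered 47 with celecoxib and 28 with rofecoxib under GC correction with control 6 left out, and 13 and 43 with the brown adipocyte covariate. Between the drugs they numbered 18 with that covariate, where the median was 0.074. As libraries were left out they ran from 53 to 72, from 26 to 70 and from 47 to 61 in the 3 comparisons, and without control 6 and rofecoxib 2 together 28 lay below 0 with rofecoxib against control and 5 members were called between the drugs. Uqcrc2 with celecoxib reversed to 0.0025 with the brown adipocyte covariate, and Atp5d with rofecoxib to 0.034 with GC correction and control 6 left out. Combined GC correction with control 6 left out, and the numbers of members below 0, were added after the data were seen. The cause was not tested.

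All genes called for celecoxib against control numbered 204, and 473 with DESeq2, 86 without the filter, 324 with GC correction, 406 with that and control 6 left out, 27 with the covariate, 88 with only those groups and 42 to 312 with a library left out. For rofecoxib against control they numbered 766, and in the same order 1567, 294, 203, 165, 453, 461 and 170 to 1121, with 215 without control 6 and rofecoxib 2. Between the drugs they numbered 3275, and 3624 with DESeq2, 2420 without the filter, 3350 with the covariate, 3071 with only those groups, 3192 without control 6 and rofecoxib 2, 1435 with GC correction, 1710 with that and control 6 left out, and 2147 to 3739 with a library left out.

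With a replicate block 0, 1 and 3 members were called in the 3 comparisons, and 187, 653 and 3193 genes in all, so the counts of members equalled those without it, but between the drugs Atp5s (adjusted p = 0.0295) took the place of Cox6b2 (0.0637). Libraries of the same number had correlations from -0.391 to 0.324, and 5 of 24 correlated best with their own number. Whether libraries of the same number share anything more cannot be told from these values.

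Depth limits the members of a few CPM: Cox6a2 could not be tested, and Cox4i2 had a standard error of 0.16 against a median of 0.11 over members.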

Other observations

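The 13 brown adipocyte genes tested had a median log2 fold change of -0.21 for celecoxib against rofecoxib, where 1 of them was called. Ppargc1a was called lower with celecoxib than with rofecoxib, and against control it had a log2 fold change of -1.04 ± 0.29 (SE) with an adjusted p of 0.071 in edgeR, which misses the threshold. Ucp1 averaged 94.1 ± 88.9 CPM with celecoxib and 83.6 ± 38.6 CPM with rofecoxib (SD, n = 8), a log2 difference of 0.17 ± 0.63 (adjusted p = 0.874). Cidea, a lipid droplet protein of brown fat, differed by -0.18 ± 0.34 (adjusted p = 0.738) and Cox8b by -0.14 ± 0.42 (adjusted p = 0.838). Single celecoxib libraries reached 5.44 CPM for Ucp1 and 1.35 CPM for Cox7a1, whereas the lowest rofecoxib values were 51.9 and 10.9 CPM. Sdha, the flavoprotein of complex II, lay close to the members in its layout, at 570 CPM in control 6 and 209 to 313 CPM in the other 23 libraries.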
